A study of Mus musculus with 8 samples.

Results

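The desmosomal cadherins are 9 genes that sit side by side on mouse chromosome 18. They comprise 3 desmocollins (Dsc1, Dsc2 and Dsc3) and 6 desmogleins (Dsg1a, Dsg1b, Dsg1c, Dsg2, Dsg3 and Dsg4). Chromatin accessibility at these genes was read from 4 lists of ATAC-seq peaks, regions where a transposase could cut open DNA. A peak was counted for a gene when the peak's midpoint had that gene as its nearest protein-coding gene span within 100 kb. By this rule 183 of 266630 peaks belonged to the 9 genes. The bulge list held 37 of them, the hair germ list 35, the basal TAC list 47 and the suprabasal TAC list 64. The whole lists held 62320, 56536, 75637 and 72137 peaks in that order, so raw counts also follow list size. With equal numbers of peaks per list the counts at the 9 genes were 36, 35, 35 and 47. Overlapping peaks of the lists merged into 81 sites, out of 102821 sites assigned to any protein-coding gene.

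All cells were sorted from mouse back skin of both sexes. Bulge stem cells were sorted as GFP+ and CD34+ with integrins α6 and β1 on their surface, and hair germ cells as GFP+ and CD34-. Both came from resting follicles (second telogen) at postnatal day 55. Basal transient amplifying cells (TACs, the dividing progeny in the growing follicle) were sorted at postnatal day 30 as GFP-, CD34-, high in integrin β1, P-cadherin positive and SCA1 negative. These 3 populations came from Lgr5-eGFP-ires-CreER mice, in which GFP and an inducible Cre are expressed from the Lgr5 locus. Suprabasal TACs, also of postnatal day 30, were low in GFP, negative for integrin α6 and CD34, and came from K14-H2BGFP mice, in which the keratin 14 promoter drives a GFP-tagged histone. The labels name 2 samples per population, and both were pooled before peaks were called. No value below therefore has a replicate error, and no test between populations was possible. Stage coincides with age, and the suprabasal population with the mouse strain, so these cannot be told apart. Nor can a site open in few cells be told apart from one weakly open in many.

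Desmosomes join neighbouring epithelial cells. Desmogleins and desmocollins cross the membrane and bind their partners on the next cell, and inside the cell plakoglobin, plakophilins and desmoplakin tie them to keratin filaments. In stratified epithelia Dsg3 and Dsc3 are known as the basal forms and Dsg1 and Dsc1 as forms of the upper, differentiating layers. Dsg2 and Dsc2 are widely expressed, and Dsg4 is a desmoglein of the hair shaft and differentiated follicle cells. Mice without Dsg3 lose their resting hairs, and mice with a mutated Dsg4 have lance-shaped hairs. The mouse carries several near copies of Dsg1, and the treatment of reads with several matches was not given in the sources used here. Values at Dsg1a, Dsg1b and Dsg1c carry that uncertainty.

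Heights are given in FPM, the number of fragments stacked at a peak's summit per 1000000 fragments of that library. The bulge library had 24065469 fragments, the hair germ library 11053351, the basal TAC library 30824845 and the suprabasal TAC library 47852893. Groups of 4 values below are always in that order. Peaks close to the caller's threshold (−log10 q-value under 2) had median heights of 0.457, 0.543, 0.422 and 0.334 FPM, called the calling level below. Across all sites with a peak in both lists, height was lower in suprabasal TACs than in the bulge by a median log2 ratio of -1.07, and lower than in basal TACs by -0.56. Basal TACs stood at -0.50 against the hair germ, and the hair germ at -0.00 against the bulge. A relative log2 ratio below is a site's ratio minus that all-site median. Marker genes were read as a check of the labels. The 6 bulge genes had summed heights of 408, 320, 154 and 76.1 FPM. The 4 hair germ genes had 261, 273, 205 and 150. Among them Cdh3 and Runx1 were highest in the hair germ, Lgr5 in the bulge and Lef1 in suprabasal TACs. The 8 suprabasal genes had 31, 26, 46 and 70 sites, with summed heights of 113, 96.7, 98.5 and 124. Among them Gata3 was highest in the bulge (65.4, against 26.8 in suprabasal TACs) and Krt71 in basal TACs. The other suprabasal genes were highest in suprabasal TACs. The 5 basal TAC and matrix genes were not highest in basal TACs: their summed heights were 132, 156, 153 and 173. Of 7 interfollicular epidermis genes 6, 6, 4 and 6 had a site (summed heights 22.0, 29.4, 28.0 and 17.3), and Flg had a site in no list. Summed heights over 3 endothelial genes ran from 25.1 to 84.5 and over 3 fibroblast genes from 17.2 to 37.5, with no site at the endothelial gene Tek in suprabasal TACs. Over 5 melanocyte genes the sums were 95.9, 67.5, 51.2 and 44.9, most of it from Mitf (85.4, 56.5, 33.7 and 16.9). The pigment gene Dct went the other way, with 3, 3, 8 and 13 sites and summed heights of 8.81, 11, 15.5 and 23.4. Pmel had 1, 0, 1 and 2 sites, Mlana had 1, 0, 1 and 5, and Tyr had none in any list. Sites at Dct, Pmel and Mlana were thus most numerous in suprabasal TACs, as were those of the cadherins. Sites rose in number from telogen to TAC lists at 4 immune genes (3, 5, 10 and 13, summed heights 6.03, 10.7, 18.5 and 15.0) and at 4 sebaceous genes (6, 5, 15 and 14, summed heights 27.1, 21.4, 40.5 and 28.5). The part of such cells in the results below was not tested.

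The 9 gene spans run from 19960930 to 20604526 (mm10), a stretch of 644 kb. Along it lie Dsc3, Dsc2 and Dsc1, then a gap of 133 kb, then Dsg1c, Dsg1a, Dsg1b, Dsg4, Dsg3 and Dsg2. It is known that the desmocollins and desmogleins are transcribed away from that gap, so the end of each gene that faces the gap is its start. Sites were spread unevenly. The gap alone held 22 of the 81 sites, the stretch between Dsg4 and Dsg3 held 8 and the Dsc1 span held 7. The Dsg1c span held 0. The longest stretches without a site were 67.6 kb around Dsg1c, 41.3 kb across the far part of Dsg2 and 40.4 kb between the first part of Dsg1b and Dsg4. On the Dsc3 side the next peak lay 259 kb from Dsc3 with 12 fragments, and no assigned peak was more than 58.8 kb from its gene. The 100 kb limit thus cut through no group of peaks.

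**Figure D1:**
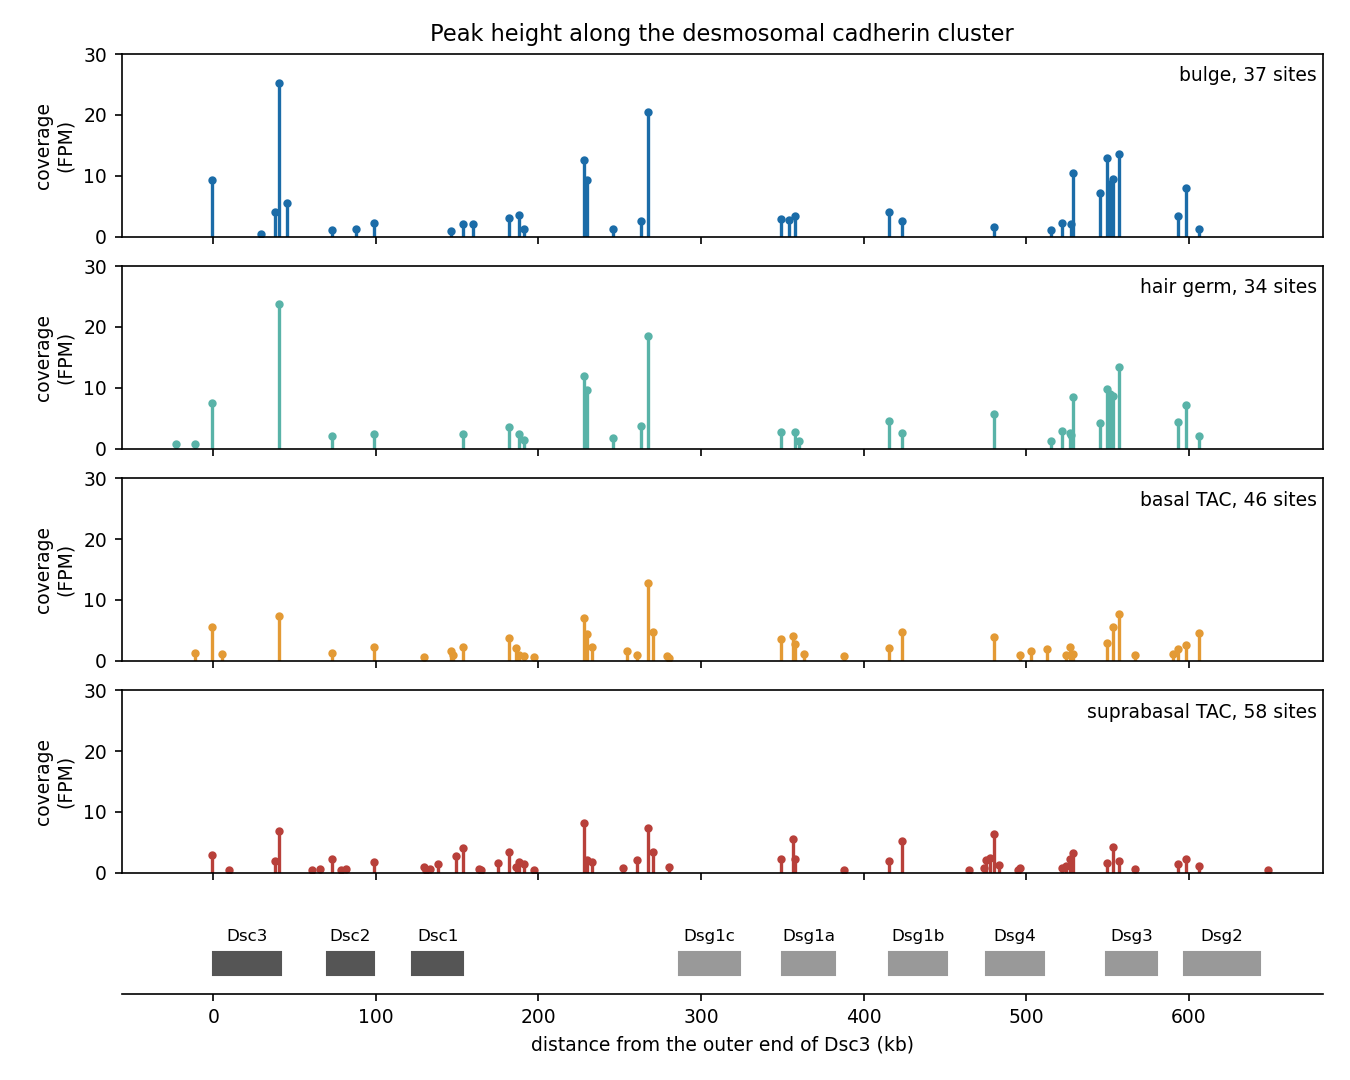
Peak height (FPM, linear axis) against distance in kb from the outer end of Dsc3, with 1 panel per population and the 9 gene spans as boxes below (dark for desmocollins, grey for desmogleins). Each line is 1 site with a peak in that population: tall lines at Dsc3, in the gap and at Dsg3 in both telogen panels are lower in suprabasal TACs, where more and smaller lines stand around Dsc1 and Dsg4.

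All 4 lists held 23 of the 81 sites (28.4%, against 28.9% of all sites). Only 43.2% of the sites lay inside a gene span, against 62.3% of all sites. Sites held by 1 list numbered 35 (43.2%, against 38.2% of all sites). Suprabasal TACs alone held 20 (24.7%, exact 95% interval 15.8 to 35.5, against 15.8% of all sites), and basal TACs alone 8 (9.88% against 13.7%). The bulge alone held 5 (6.17% against 6.35%) and the hair germ alone 2 (2.47% against 2.26%). Both TAC lists and no telogen list held 12 sites (14.8% against 10.8%), and both telogen lists and no TAC list held 6 (7.41% against 6.26%). In each of these 6 classes the all-site share lay within the counting interval of the cadherin share, at its lower end for suprabasal TACs alone. The common sites were long and tall, with a median length of 1491 bp and a median highest coverage of 5.16 FPM. Sites of 1 list had a median of 449 bp and 0.941 FPM. Over all sites at protein-coding genes these were 1290 bp and 5.16 FPM, and 395 bp and 0.843 FPM. Most of the 20 suprabasal sites were weak: 14 were under 2 times the calling level of at least 1 list that lacked them.

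**Figure D2:**
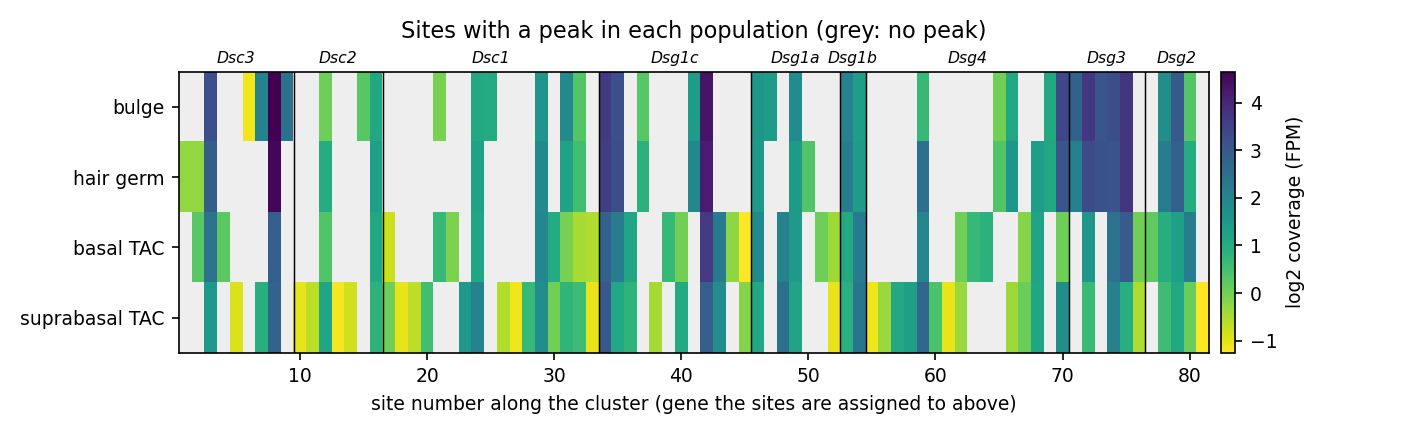
The 81 sites in order along the chromosome (columns) in the 4 populations (rows), with vertical lines between the genes they are assigned to. Colour gives log2 FPM, and grey means no peak: suprabasal TACs hold 58 of the 81 sites, basal TACs 46, the bulge 37 and the hair germ 34.

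Gene by gene, Dsc1 and Dsg4 carried most of the additional suprabasal peaks. Dsc1, the desmocollin of upper layers, had 6, 5, 9 and 15 peaks. Dsg4 had 5, 6, 7 and 12, and Dsc2 had 3, 2, 3 and 7. Many of these peaks were weak. Above a −log10 q-value limit of 10, Dsc1 had 5, 4, 4 and 10 peaks, Dsg4 4, 3, 5 and 6, and Dsc2 3, 2, 2 and 3. At that limit only Dsc1 of these genes had a difference of more than 1 peak between the TAC lists. Counting only peaks with their midpoint inside the gene span, Dsc1 had 1, 0, 4 and 5. Dsg4 then had 1, 1, 3 and 5, and Dsc2 3, 2, 2 and 4. Of the 17 Dsc1 sites 7 lay inside its span. Dsg1c had 5, 5, 9 and 8, and with equal numbers of peaks per list 5, 5, 7 and 8. In both counts its larger step was from hair germ to basal TACs. Dsg1b had 2 in each list, at the same 2 sites. Dsc3 had 5, 4, 4 and 4, but at different places: of its 9 sites 2 were in all 4 lists and 5 in 1 list alone. Dsg1a had 3, 3, 5 and 4, Dsg3 had 5, 5, 4 and 6, and Dsg2 had 3, 3, 4 and 6. At Dsg3 and Dsg2 the suprabasal counts include broad sites split into pairs of peaks, and each had 4 suprabasal sites.

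**Figure D3:**
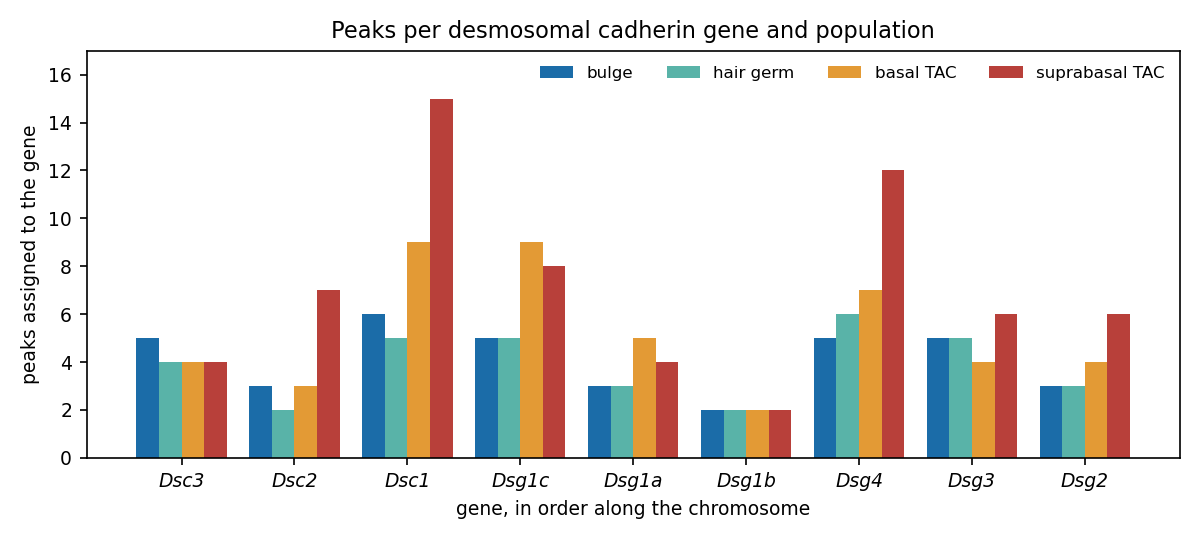
Number of peaks assigned to each of the 9 genes (bars from 0), in chromosome order, for each population. Dsc1 reaches 15 and Dsg4 12 in suprabasal TACs, while Dsg1b has 2 in every list.

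At the gap-facing ends, a window from 250 bases before to 50 bases after the presumed start was set beside the same window of 17274 genes in the RefSeq promoter table. Bulge peaks overlapped it in 6 of the 9 genes (background 58.3%), hair germ peaks in 6 (57.5%), basal TAC peaks in 7 (60.1%) and suprabasal TAC peaks in 8 (59.6%). All 4 lists had a peak there in 6 genes (54.7%). The remaining genes were Dsc2, Dsg4 and Dsg1c. At Dsc2 the site (chr18:20058842-20060572) was present in all lists, with 2.2, 2.44, 2.21 and 1.78 FPM, but the telogen peaks stopped short of the window. At Dsg4 only suprabasal TACs had a peak in the window, a pattern found in 1.19% of genes. At Dsg1c no list had one, as at 36.8% of genes, and the edge of the nearest site lay 5.61 kb away. Other distances from a start are to a site's midpoint.

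Dsg3, the basal desmoglein that anchors resting hair, had the lowest median relative log2 ratio of the 9 genes between suprabasal TACs and bulge, -1.76. Its start site (chr18:20509714-20510990) stood at 13.0, 9.86, 2.89 and 1.55 FPM. Both telogen values were above both TAC values, and the bulge was 8.38-fold above suprabasal TACs (relative log2 ratio -2.0). Fold enrichment over local background differed less at the start site, at 5.26, 4.98, 4.21 and 3.74. An intragenic site 7.54 kb from the start (chr18:20516997-20518622) had 13.5, 13.5, 7.75 and 1.90 FPM. There the drop fell between basal and suprabasal TACs, with a relative log2 ratio of -1.47 and fold enrichments of 7.11, 7.60, 7.09 and 4.43. A site between them (chr18:20514099-20514903) followed the all-site median in height, at 9.43, 8.69, 5.48 and 4.20 FPM. Its relative log2 ratio between suprabasal TACs and bulge was -0.10. Its fold enrichment went the other way, at 2.81, 3.00, 3.96 and 7.46, highest in suprabasal TACs. A pair of strong sites had no peak in either TAC list. The site 3.94 kb outside the start (chr18:20506086-20506581) had 7.11 FPM in bulge cells and 4.16 in hair germ cells. The site 1.97 kb inside it (chr18:20511928-20512560) had 8.56 and 8.96. Their taller values were 16.8 and 21.2 times the higher TAC calling level. That level is a median over a whole list, and the local limit at these sites in the TAC lists is not known. The caller measured background locally, and in the bulge the inner site's fold enrichment over it was 3.27, against 5.28 for the outer one.

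Dsc3, the basal desmocollin, had the tallest site of the cluster at its start (chr18:20000811-20002548). Its coverage was 25.3, 23.8, 7.30 and 6.88 FPM, while its fold enrichment over local background was 9.87, 11.3, 9.11 and 9.03. In coverage the telogen lists lay together and the TAC lists lay together. The step between hair germ and basal TAC was at a relative log2 ratio of -1.20. From basal to suprabasal TACs the relative ratio was 0.47. The site at its other end (chr18:19958991-19960825), 1.02 kb outside the span, had 9.27, 7.51, 5.48 and 2.84 FPM, lower at each step. Its relative log2 ratios at these steps were -0.30, 0.05 and -0.39, so from hair germ to basal TACs it followed the all-site median. A bulge peak 3.70 kb before the start (chr18:20005823-20006394) had 5.49 FPM with no peak in the other lists. Its fold enrichment over the local background was 2.52, against 9.87 at the start site in that list. The other Dsc3 site past 2 times the calling level in 1 list alone was intragenic (chr18:19965715-19966317), with 1.17 FPM in basal TACs.

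Dsc2 and Dsc1 had the highest median relative log2 ratios between suprabasal TACs and bulge, 1.46 and 1.29. Inside Dsc2, a site (chr18:20033392-20034882) had 1.04, 1.99, 1.27 and 2.24 FPM. The suprabasal peak was also the longest, 1469 bp against 326 bp in the bulge, and the relative log2 ratio between these lists was 2.17. Dsc2 also had a bulge-only site 11.1 kb from its start (chr18:20048061-20048892) at 1.21 FPM. All 4 suprabasal-only sites of Dsc2 were low, between 0.44 and 0.63 FPM, near the calling levels of the other lists.

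At the start of Dsc1 (chr18:20114143-20115454) coverage was 2.08, 2.35, 2.27 and 4.05 FPM. The first 3 populations lay close together and suprabasal TACs stood above them. The relative log2 ratio was 2.03 against the bulge and 1.40 against basal TACs. Fold enrichment over local background did not follow that order, at 9.65, 7.57, 7.53 and 8.62, highest in the bulge. Of 7 suprabasal-only sites at Dsc1, 3 stood at least 2 times above the calling levels. An intragenic site 4.52 kb from the start (chr18:20109627-20110883) had 2.78 FPM over 1257 bp. Another, 15.9 kb in (chr18:20098661-20099148), had 1.44, and a site in the gap (chr18:20135411-20136314) had 1.61. Basal TACs had 1 intragenic site of their own, at 0.941 FPM. The bulge had 1 in the gap (chr18:20120268-20120919) at 2.04, with a fold enrichment of 12.1.

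The gap between the desmocollins and desmogleins held the tallest site after the Dsc3 start. That site (chr18:20227957-20229046), 18.8 kb from Dsg1c, had 20.4, 18.5, 12.7 and 7.36 FPM. Relative to all sites the log2 ratio between suprabasal TACs and bulge was -0.40. A site in the middle of the gap (chr18:20187988-20189346) had 12.5, 11.9, 6.97 and 8.25, a relative log2 ratio of 0.46 between suprabasal TACs and bulge. Its neighbour towards Dsg1c (chr18:20190211-20191480) had 9.31, 9.59, 4.41 and 2.17, a relative ratio of -1.03. Neighbouring sites of 1 stretch thus differed in how they changed. Several gap sites were held by 1 stage alone. Both telogen lists held a site (chr18:20223602-20223939) at 2.62 and 3.71 FPM. Both TAC lists held one nearer to Dsg1c (chr18:20231022-20231619) at 4.74 and 3.39. Basal TACs alone held one (chr18:20214784-20215645) at 1.62.

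Dsg1a and Dsg1b, desmogleins of the differentiating layers, had a start site in every list. At Dsg1a (chr18:20309342-20311250) it stood at 2.87, 2.80, 3.57 and 2.19 FPM, and at Dsg1b (chr18:20375099-20377492) at 4.07, 4.52, 2.08 and 1.88. Both genes also held an inner site that was higher in the TAC lists. In Dsg1a, a site 6.67 kb from the start (chr18:20317042-20318053) had no telogen peak and stood at 4.02 FPM in basal TACs and 5.58 in suprabasal TACs. This was 10.3 times the highest calling level of the telogen lists. A bulge-only site (chr18:20314995-20315527) at 2.66 and a hair-germ-only site (chr18:20321097-20321447) at 1.27 lay on either side of it. In Dsg1b, a site 7.71 kb from the start (chr18:20383532-20385345) had 2.53, 2.62, 4.70 and 5.16 FPM, lower in both telogen lists than in both TAC lists. The relative log2 ratio of these heights was 1.35 at the step from hair germ to basal TAC. Fold enrichment over local background did not follow that order there, at 13.0, 8.79, 10.5 and 10.2. Dsg1c itself had no peak within its 37.7 kb in any list.

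Dsg4, the hair shaft desmoglein, showed a suprabasal group of sites at its start. The start site (chr18:20435608-20436357) had 2.11 FPM in suprabasal TACs and no peak elsewhere. Within the next kilobases suprabasal TACs alone also held a site at 2.28 kb (chr18:20438140-20438778) with 2.44 FPM and one at 8.07 kb (chr18:20444136-20444354) with 1.34. Their fold enrichments over local background were 4.17, 3.02 and 2.39. Between them lay a site of all lists (chr18:20440358-20442189), where coverage was 1.62, 5.61, 3.89 and 6.33 FPM. The bulge was the lowest and the hair germ 3.46-fold above it. The peak there was 537, 549, 855 and 1832 bp long. Its relative log2 ratio of height between suprabasal TACs and bulge, 3.03, was the highest among the 25 cluster sites held by both. Fold enrichment over local background did not follow that order, at 9.65, 15.5, 11.3 and 8.77, lowest in suprabasal TACs.

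The far side of Dsg4 behaved otherwise. Basal TACs alone held an intragenic site (chr18:20463661-20464442) at 1.62 FPM and one just past the gene (chr18:20473449-20473900) at 1.85. Between Dsg4 and Dsg3, 18.1 kb from Dsg4, a site (chr18:20489470-20490296) had 10.5, 8.50, 1.04 and 3.32 FPM. Its 10.1-fold range was the widest of the common sites of the cluster. Basal TACs were the lowest, and the relative log2 ratio of suprabasal to basal TACs was 2.24. It is counted for Dsg4 but lies between both genes, and the assignment by distance does not say which of them it serves.

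Dsg2, the widely expressed desmoglein, had a start site (chr18:20557684-20560571) at 8.02, 7.24, 2.50 and 2.19 FPM, higher in both telogen lists. An intragenic site 9.19 kb from the start (chr18:20566175-20568362) had 1.25, 1.99, 4.54 and 1.07 FPM. Basal TACs stood alone there, and their peak was 2178 bp long. Basal TACs also held a site of their own between Dsg3 and Dsg2 (chr18:20551314-20551697) at 1.14.

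**Figure D4:**
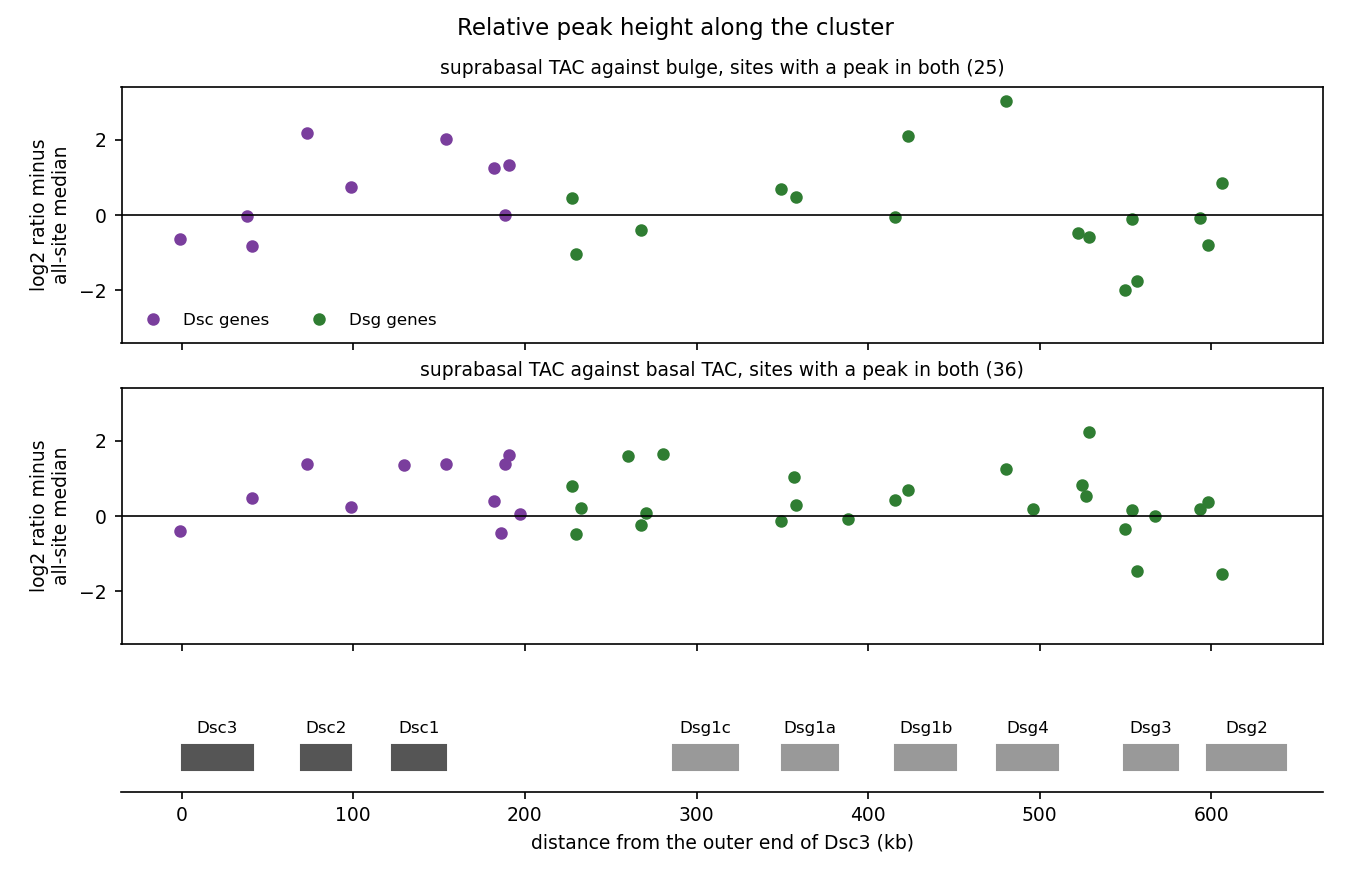
Log2 ratio of height (FPM) at each cluster site held by both populations, minus the median over all such sites of the genome (0 line), against distance in kb from the outer end of Dsc3, for suprabasal TACs against bulge (25 sites) and against basal TACs (36 sites). Purple points are desmocollin sites and green points desmoglein sites; against the bulge, sites at Dsc2 and Dsc1 lie mostly above the line, 1 Dsg4 site reaches 3.03 and Dsg3 sites lie below it, down to -2.0.

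The comparisons along the lineage share lists, so they are not independent of each other. Hair germ against bulge set the telogen populations side by side. Of 41 sites in either list 4 were held by the hair germ alone (background over all sites 9.7%) and 7 by the bulge alone (18.9%). Both shares were close to or below the background. Of 30 sites in both lists, 17 were higher in the hair germ (56.7%, against 49.7% of all sites) and 1 was at least 2-fold higher there (background 5.5%), the Dsg4 site described above. None was 2-fold higher in the bulge (4.4%).

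Basal TACs against hair germ compared the progenitors of the growing and the resting follicle. Basal TACs alone held 21 of 55 sites (background 37.1%) and the hair germ alone 9 (14.5%), again near the background. Of the sites gained, 6 were at Dsg1c, 5 at Dsc1 and 4 at Dsg4. Of 25 sites in both lists 1 was at least 2-fold higher in basal TACs (7.39%), the Dsg2 site, and 9 in the hair germ (23.7%). The share higher in basal TACs was 24.0% (6 of 25), and 36.0% when heights were scaled to the median of sites held by all 4 lists instead of to fragments. Over all sites these were 27.6% and 47.0%.

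Suprabasal against basal TACs, both of the growing follicle, compared the layers of the same structure. Suprabasal TACs alone held 22 of 68 sites (32.4%, background 22.9%) and basal TACs alone 10 (14.7%, background 25.7%). Of the 32 changed sites 68.8% were suprabasal (95% exact Clopper-Pearson interval 50.0 to 83.9, counting error only), against 47.1% of all changed sites. Above a −log10 q-value limit of 10 the share was 58.3% (interval 36.6 to 77.9). With equal numbers of peaks per list it was 66.7% (44.7 to 84.4). Both intervals hold 47.1%, but that all-site share belongs to the main setting. All-site shares at these other settings are not given here. Dsc1 and Dsg4 gave 7 each of the 22. Without these genes, left out after their values were seen, 8 sites were suprabasal and 6 basal. Of 36 sites in both lists, 4 were at least 2-fold higher in suprabasal TACs (11.1%, background 3.56%) and 4 in basal TACs (11.1%, background 26.6%). The share higher in suprabasal TACs was 36.1%, against 20.7% of all sites. Scaled to common sites these were 80.6% and 60.5%.

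Suprabasal TACs against bulge compared the most distant populations of the lineage. Suprabasal TACs alone held 33 of 70 sites (47.1%, background 35.1%) and the bulge alone 12 (17.1%, background 23.7%). The suprabasal share of the 45 changed sites was 73.3% (95% interval 58.1 to 85.4), against 59.7% of all changed sites, which that interval holds. Above a −log10 q-value limit of 10 the share was 65.5% (45.7 to 82.1). With equal numbers of peaks per list it was 61.3% (42.2 to 78.2). Of 25 sites in both, 3 were at least 2-fold higher in suprabasal TACs (background 4.36%), 1 each at Dsc2, Dsg1b and Dsg4, and 14 in the bulge (52.9%). The share higher in suprabasal TACs was 24.0%, and 60.0% when scaled to common sites, against 15.9% and 53.5% of all sites. By gene, the median relative log2 ratio ran from 1.46 at Dsc2 and 1.29 at Dsc1 to -0.64 at Dsc3 and -1.76 at Dsg3, from 2 to 4 sites each.

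**Figure D5:**
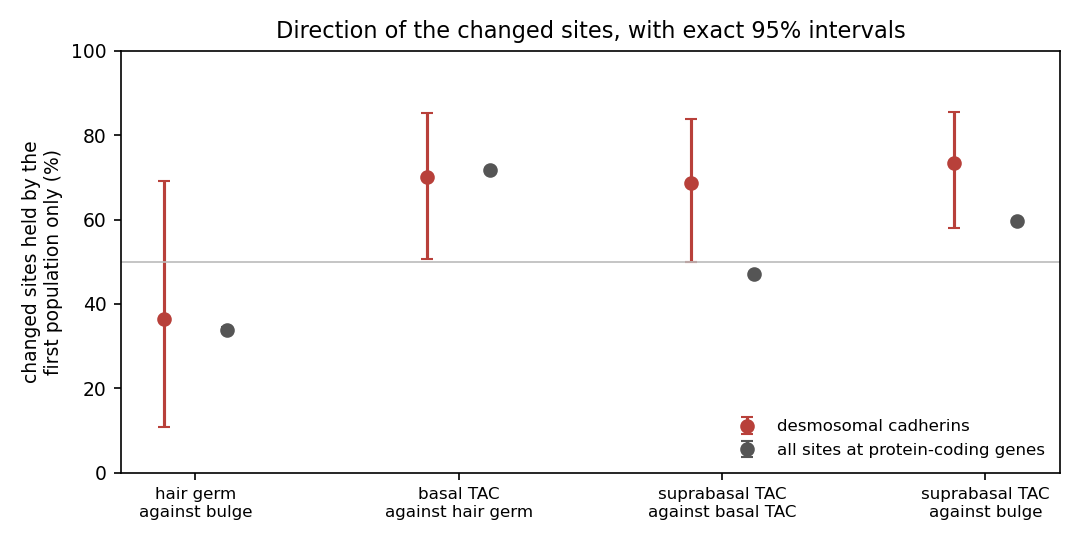
For each of 4 comparisons, the percentage of changed sites (held by 1 of the 2 lists) that the first-named population holds, for the desmosomal cadherins (red) and for all sites at protein-coding genes (grey), with exact 95% intervals from counting error. The red points are 36.4, 70.0, 68.8 and 73.3%, beside grey points of 33.9, 71.8, 47.1 and 59.7%; the red intervals are wide.

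The intracellular partners of these cadherins were looked at through 8 genes: Dsp (desmoplakin), Jup (plakoglobin), the plakophilins Pkp1, Pkp2 and Pkp3, Perp, a membrane protein of desmosomes, and the envelope linkers Ppl and Evpl. Together they had 95 sites, of which the lists held 72, 64, 48 and 67. Basal TACs therefore had the fewest, where the cadherins had 37, 34, 46 and 58. From hair germ to basal TACs the partners lost 20 of 68 sites (29.4%, background 14.5%) and gained 4 (5.88%, background 37.1%). From basal to suprabasal TACs they gained 28 of 76 (36.8%, background 22.9%) and lost 9 (11.8%, background 25.7%). The suprabasal share of these changed sites was 75.7%, where the cadherins had 68.8%. Dsp had 17, 14, 9 and 18 sites, Pkp1 had 19, 15, 12 and 14, and Pkp2 had 3, 5, 4 and 9. Between basal and suprabasal TACs 5 of the 8 partners had more sites in suprabasal TACs and 0 had fewer. Among the 9 cadherins these were 3 and 2. No share over all genes stands beside these counts, so they are not read as a result about either set. Of the classical cadherins of skin epithelium, Cdh1 (E-cadherin) had 12, 13, 12 and 15 sites, and Cdh3 (P-cadherin, a sorting marker) had 12, 10, 10 and 13.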

How the data were processed

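ATAC-seq of 8 samples, 2 per population, was used as 4 deposited peak lists. Per the file headers, the authors pooled the samples of a population and ran MACS version 2.1.1.20160309 without a control, on fragments from paired ends, at a q-value cutoff of 0.05. Its local background spanned 10 kb. The tools Bowtie2 2.2.9 and Picard and the build mm10 are named in the submitters' processing notes. Any shift for the transposase was not given in the sources used here. The deposited values are peak length, coverage signal at the summit (unscaled), −log10 p- and q-values and fold enrichment over local background, all as the authors' caller gave them.

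Peaks on the Y and mitochondrial chromosomes were left out. Peaks overlapping by at least 1 bp were merged into sites, whose height in a list is that of its tallest peak. Peaks and sites were assigned to the nearest of 21631 protein-coding gene spans (RefSeq, GRCm38.p6, the mm10 build). That table gives no strand or exons, so intragenic sites were not split into exon and intron, and starts are the ends facing the gap. Gene-start windows of other genes came from the RefSeq promoter table. Promoter sequence of the 9 genes is not reported here. Merging and assignment were tested on simulated data. Intervals are exact Clopper-Pearson at 95%.

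The genes, gene lists and comparisons were chosen with earlier results of these data known. Single sites were named by rule: the tallest site of each gene, sites of 1 list at least 2 times above the calling level of each other list, and sites of all 4 lists with a range of at least 4-fold. Start sites and the remaining sites given with positions were chosen after their values were seen. Python 3.11.15, pandas 2.3.3 and scipy 1.17.1 were used.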

Additional observations from a re-analysis of the deposited data

How the results depend on the processing

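Of 64 alternative values for the main results, 57 stayed within the limits set (1.5 times for a count, the 95% interval for a share). Of 144 values for single genes 105 did so. With equal numbers of peaks per list Dsg4 had 5 basal and 7 suprabasal TAC peaks, and Dsc1 had 4 and 10. Counting only peaks with their midpoint inside a gene span gave 17, 13, 21 and 29 peaks from the bulge to the suprabasal list. At the stricter −log10 q-value limit of 10, 0% of the changed sites between hair germ and bulge were in the hair germ (0 of 6). Scaled to the median of common sites, 60.0% of the sites shared with the bulge were higher in suprabasal TACs, the opposite side of 50% from 24.0%, and 80.6% of those shared with basal TACs, where the fragment scale gave 36.1%. The second scaling divides each list by another number and leaves the order of sites within a list as it is. No paired analysis was possible because the lists pool both samples of a population, and for the same reason no sample could be left out. Absence of a peak is no measure of closed chromatin. The hair germ library was the shallowest, with a calling level of 0.543 FPM, and the caller's local background sets a higher limit beside tall sites.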

Other observations

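The genes whose coverage was shared out over the 4 populations most like that of the 9 cadherins together (32.1% bulge, 29.5% hair germ, 19.7% basal TAC, 18.7% suprabasal TAC) were Afap1l2, Uck2, Ddx10, Fosl2 and Dab2ip, out of 3058 genes with at least 10 sites. The sums of absolute differences were 0.76 to 1.55 percentage points over 4 populations. The members themselves were spread widely around that mean: the suprabasal part was 6.82% at Dsg3, 11.6% at Dsc3, 12.5% at Dsg2, 33.1% at Dsc2 and 37.0% at Dsc1. All other genes together had 15.0%. Next to the cluster, the peaks beyond Dsg2 that have the neighbouring gene Ttr nearest were low, with 0.31 FPM in suprabasal TACs, 0.49 in basal TACs and 0.79 in the bulge for the 3 nearest to the cluster.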
